A study of Mus musculus with 26 samples.

Results

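Heme and iron handling was examined through 10 genes, taken by name for their roles: Hp, Hmox1 and Blvrb for the capture and breakdown of hemoglobin and heme, Tfrc and Slc11a1 for iron import, Slc40a1 and Cp for iron export, and Fth1, Ftl1 and Ncoa4 for iron storage. All 10 were found in the count tables of the 3 sorted cell types, which share 50104 gene identifiers. Measurements came from bulk RNA sequencing of 26 libraries from naïve female mice, of WT and ACKR2-/- genotype. ACKR2 is an atypical chemokine receptor that binds and clears inflammatory CC chemokines. The groups were bone marrow monocytes (4 WT and 4 ACKR2-/- libraries), small peritoneal macrophages, SPMs (4 and 4), and MHCII negative lung macrophages (5 and 5). By the study's methods the mice were 8 to 10 weeks old unless stated otherwise, each monocyte or SPM library pooled cells of 5 mice, WT mice were C57BL/6J animals from a commercial supplier, and ACKR2-/- mice were bred in house. Genotype and the origin of the animals therefore cannot be told apart. The number of mice behind a lung library was not given in the sources used here. No allele or agent was shared by all groups, and no group was treated.

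Macrophages return most of the body's iron to the blood. Hemoglobin released from red cells is bound by haptoglobin (Hp), and heme is opened by heme oxygenase 1 (Hmox1) to biliverdin, carbon monoxide and iron. Biliverdin reductase B (Blvrb) reduces flavins and some forms of biliverdin. Iron also enters through the transferrin receptor (Tfrc) and leaves the phagosome through Slc11a1 (NRAMP1). It is stored in ferritin, a shell of heavy (Fth1) and light (Ftl1) chains that NCOA4 delivers to lysosomes, or exported by ferroportin (Slc40a1), with ceruloplasmin (Cp) oxidising it for transferrin.

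When cells are short of iron, iron regulatory proteins bind a small hairpin in some of these mRNAs, the iron responsive element. A hairpin in the 5′ UTR holds back translation, and hairpins in the 3′ UTR protect the mRNA from decay. The hairpin has an unpaired C, a stem of 5 base pairs and a loop of 6 bases. Annotated UTRs of the 10 genes were searched on the sense strand for the letters CNNNNNCAGTGN followed by 5 bases that can pair with the stem, with G-T pairs allowed, in the GRCm38 genome with GENCODE M21 transcripts. The sites below are shown because they set apart the genes whose UTRs hold the letters of this hairpin, and the capitals mark the unpaired C and the loop.

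Slc40a1, 5′ UTR, chr1:45925465-45925493, minus strand: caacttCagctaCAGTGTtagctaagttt

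Fth1, 5′ UTR, chr19:9982732-9982760, plus strand: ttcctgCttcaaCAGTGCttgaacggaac

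Ftl1, 5′ UTR, chr7:45459779-45459807, minus strand: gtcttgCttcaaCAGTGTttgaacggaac

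Tfrc, 3′ UTR, chr16:32631219-32631247, plus strand: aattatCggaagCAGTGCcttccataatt

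Tfrc, 3′ UTR, chr16:32631598-32631626, plus strand: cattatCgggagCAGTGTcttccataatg

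Tfrc, 3′ UTR, chr16:32631663-32631691, plus strand: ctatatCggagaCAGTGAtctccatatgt

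Tfrc, 3′ UTR, chr16:32631710-32631738, plus strand: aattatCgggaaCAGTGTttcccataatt

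The exporter and both ferritin chains held 1 match each, in the 5′ UTR, and Tfrc held 4, all in the 3′ UTR in exon 19. The same letters matched in 28 of 20890 genes with an annotated 5′ UTR (0.134%) and in 127 of 21691 genes with a 3′ UTR (0.585%). Hmox1, Blvrb, Slc11a1, Ncoa4, Hp and Cp had no match. A match describes letters only, and these data measured RNA and not its translation.

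Library totals were 15450670 to 19218213 reads counted to genes for monocytes, 12781144 to 35400034 for SPMs and 19950019 to 29770252 for lung macrophages. Levels are given as CPM, counts scaled to the library total and to TMM factors over all 26 libraries. A count of 3 reads, taken as the floor, corresponded to 0.0809 to 0.466 CPM and covers counting error only. Ackr2 had 0 reads in all 8 ACKR2-/- libraries of monocytes and SPMs, 5 to 9 reads in the WT SPM libraries and 2 reads in all in the 4 WT monocyte libraries. In the lung it had 150 to 469 reads in WT replicates 1 to 4 and 7 to 50 reads in the ACKR2-/- libraries. Markers were present in each sort, with Ly6c2 at 2455 to 5091 CPM in monocytes, H2-Ab1 at 44950 to 66820 CPM in SPMs and Csf1r at 658 to 1897 CPM in the lung. Not every marker set its sort apart. Ccr2, a monocyte marker, was at 397 to 644 CPM in WT monocytes and 1006 to 2920 CPM in WT SPMs. The 7 lung interstitial macrophage markers summed to 1615 to 3545 CPM in the WT lung and 1777 to 3745 CPM in WT SPMs. The lung library labelled WT replicate 5 had 0 Ackr2 reads, unlike the other WT lung libraries. Its epithelium and endothelium markers were also the lowest of the WT lung libraries, at sums of 388 and 75.0 CPM. ACKR2-/- lung replicate 4 had low sums of these markers too, at 239 and 80.2 CPM. Whether the label of WT replicate 5 is right was not tested. The lung library WT replicate 3 had a summed SPM marker level of 16879 CPM against 1830 to 2445 in the others of the lung. H2-Ab1, an MHCII gene, led that sum. Lung contrasts are therefore given without both libraries as well, after the account of each kind of contrast. In the lung libraries the lung epithelium markers summed to 239 to 15920 CPM, so that RNA of cells outside the sort was present. In WT SPM libraries the T cell markers summed to 393 to 861 CPM and the B cell markers to 469 to 1658 CPM. The part of T or B cell RNA in the SPM levels was not tested. Each cell type was prepared from its own tissue and counted in its own table, so that cell type, preparation and counting cannot be told apart in any contrast between cell types. In bulk libraries fewer cells of a type and less RNA per cell cannot be told apart. Nothing in the labels says that libraries of 1 group came from separate preparations, so p-values measure the spread between these libraries.

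In WT mice the 10 genes separated the 3 cell types widely. Both macrophage types held more Hmox1, Blvrb, Slc11a1, Cp and ferritin RNA than monocytes, and less Tfrc, Slc40a1, Ncoa4 and Hp. A gene was called where edgeR's quasi-likelihood test gave a Benjamini-Hochberg adjusted p under 0.05 and the groups differed by more than 0.5 on the log2 scale. All 10 genes were called between WT SPMs and WT monocytes, 6 higher and 4 lower, where 41.9% of 17792 genes were called, 21.8% higher and 20.1% lower. All 10 were also called between WT lung macrophages and WT monocytes, against 63.8% of all genes, and 8 of 10 between WT lung macrophages and WT SPMs, against 62.3%. The same 3 contrasts within ACKR2-/- mice called 9, 9 and 8 of the 10, against 40.3%, 62% and 63.6% of all genes. The median log2 difference over the 10 genes was 1.58, 0.96 and 1.08 in the 3 WT contrasts, beside 0, 0.34 and 0.41 over all genes tested. Large shares of all genes differed in these contrasts, so the counts alone do not set these genes apart.

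**Figure D1:**
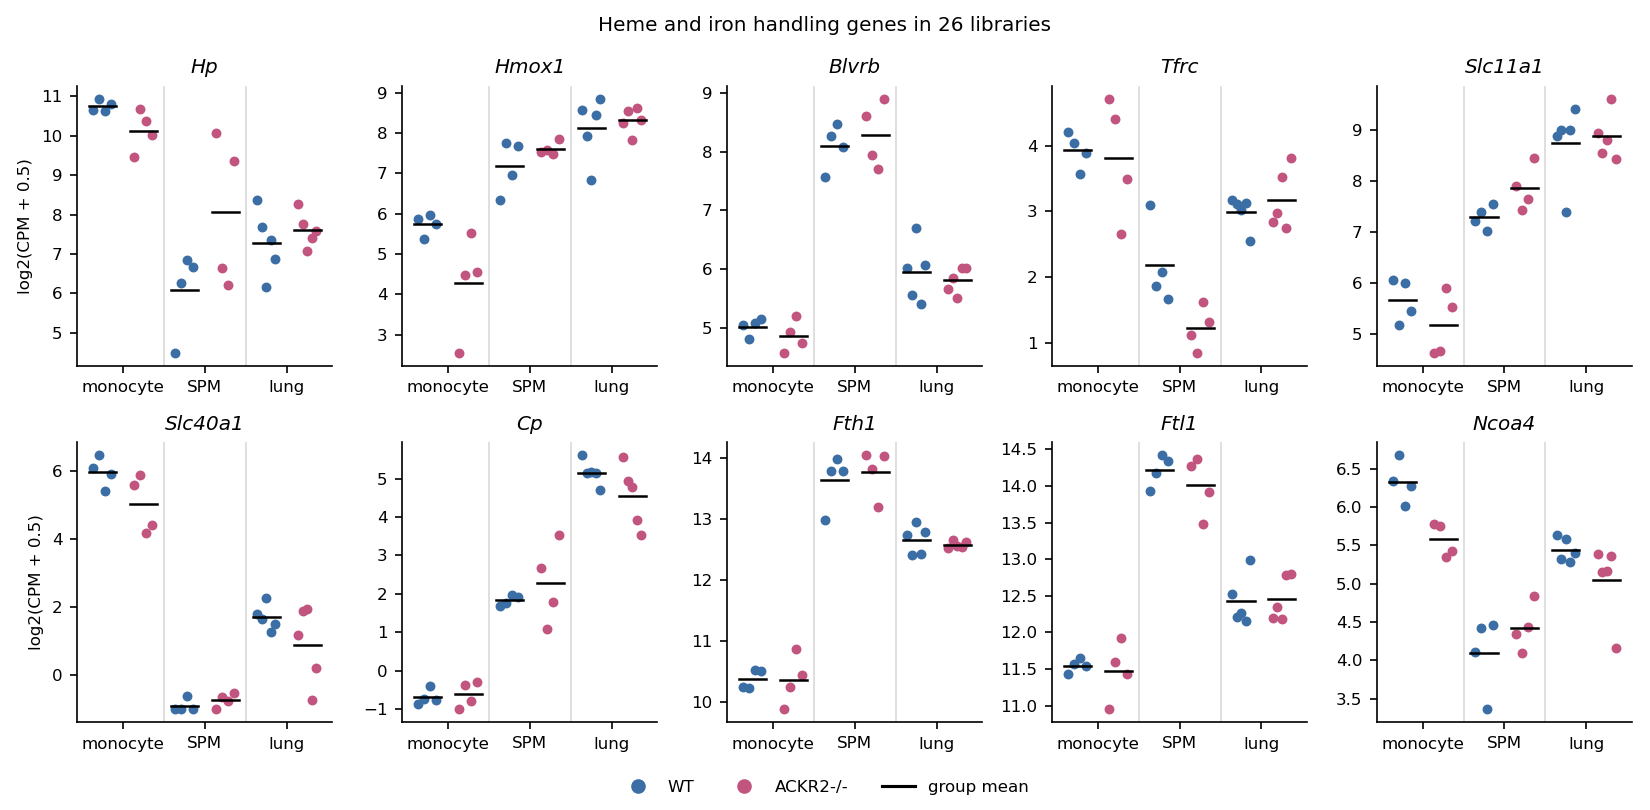
Level of each of the 10 genes, as log2(CPM + 0.5), in every library of WT (blue) and ACKR2-/- (pink) monocytes, SPMs and lung macrophages, with a line at the group mean. The ferritin genes, Hmox1, Blvrb, Slc11a1 and Cp sat higher in both macrophage types than in monocytes, and Ncoa4 is the gene whose monocyte groups did not overlap between genotypes.

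Ferritin RNA was the most abundant. Per kb of the gene length listed in the deposited tables, the mean level in WT SPMs was 15084 ± 3977 CPM per kb for Fth1 (SD, n = 4; chr19:9982703-9985092) and 14354 ± 2113 CPM per kb for Ftl1 (SD, n = 4; chr7:45457944-45459884). In WT lung macrophages Fth1 stood at 7537 ± 1214 and Ftl1 at 4218 ± 1108 CPM per kb (SD, n = 5). In WT monocytes the order was reversed, with Ftl1 at 2238 ± 141 and Fth1 at 1533 ± 174 CPM per kb (SD, n = 4). Both chains were thus ranked first or second of the 10 genes in every cell type.

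On the log2 scale Fth1 was 3.30 ± 0.27 (SE) higher in WT SPMs than in WT monocytes (edgeR adjusted p = 4.19e-10) and 2.30 ± 0.25 higher in WT lung macrophages than in monocytes (edgeR adjusted p = 2.45e-08). The difference of lung macrophages from SPMs was -1.001 ± 0.23, with an edgeR adjusted p of 0.000654. Ftl1 followed the same order, 2.68 ± 0.28 higher in SPMs than in monocytes, 0.91 ± 0.25 higher in lung macrophages than in monocytes, and at -1.77 ± 0.25 in lung macrophages against SPMs (edgeR adjusted p of 1.89e-08, 0.00262 and 1.09e-06).

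The balance of heavy to light chain RNA also differed between cell types. The ratio of Fth1 to Ftl1, per kb, was 0.676, 0.608, 0.706 and 0.750 in the 4 WT monocyte libraries and 0.734, 0.602, 0.740 and 0.781 in the 4 ACKR2-/- ones. In SPMs it was 0.805, 1.17, 1.13 and 1.04 in WT and 1.32, 1.05, 1.26 and 1.66 in ACKR2-/- libraries. All 8 monocyte libraries lay below 1, and the SPM libraries lay around it or above. In the lung it was 1.79, 1.78, 2.48, 1.86 and 1.33 in WT replicates 1 to 5 and 1.95, 1.91, 1.98, 1.30 and 1.35 in ACKR2-/- replicates 1 to 5. The 10 lung ratios all lay above all 8 monocyte ratios. Within each cell type the genotypes overlapped, with means of 0.685 ± 0.0599 and 0.714 ± 0.0775 in WT and ACKR2-/- monocytes, 1.04 ± 0.163 and 1.32 ± 0.252 in SPMs (SD, n = 4), and 1.85 ± 0.410 and 1.70 ± 0.344 in the lung (SD, n = 5).

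**Figure D2:**
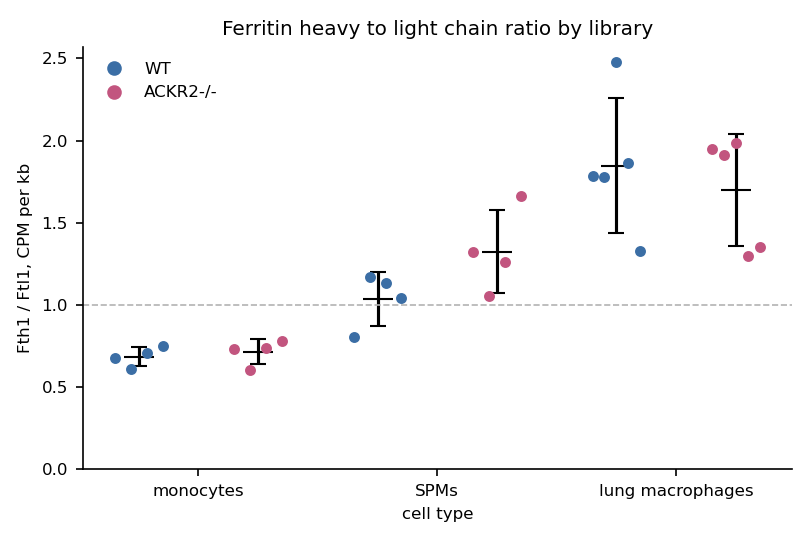
Ratio of Fth1 to Ftl1, each in CPM per kb, in every library (points), with the group mean and SD in black, for WT (blue) and ACKR2-/- (pink). Monocyte libraries lie between 0.602 and 0.781 and lung libraries between 1.30 and 2.48, with a dashed line at a ratio of 1.

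Ftl1 has near-identical copies, Ftl1-ps1 and Ftl2-ps, whose reads cannot be placed with certainty. These copies took 9.48% to 11.7% of the reads of all 3 loci in monocytes, 4.88% to 17.9% in SPMs and 1.34% to 1.74% in the lung, so the split of reads differed between the tables. The WT SPM library replicate 3 had the highest share, with 3802 CPM on Ftl1-ps1 against 539 to 863 CPM in the other WT SPM libraries. Adding the copies to Ftl1 changed no call for ferritin between genotypes. They were not added in the contrasts between cell types or in the ratio of Fth1 to Ftl1, so their weight there was not tested.

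Ncoa4 (chr14:32159865-32179855), the receptor that takes ferritin to the lysosome, ran opposite to ferritin across the cell types. In WT monocytes it was at 80.6, 102, 64.5 and 76.8 CPM in replicates 1 to 4. In WT SPMs it was at 16.8, 21.02, 9.79 and 21.5 CPM, and in WT lung macrophages at 49.1, 39.6, 47.6, 38.4 and 41.6 CPM. Every WT SPM library lay below every WT lung library, and every lung library below every monocyte library. The log2 differences were -2.22 ± 0.25 for SPMs against monocytes, -0.90 ± 0.23 for lung macrophages against monocytes and 1.32 ± 0.24 for lung macrophages against SPMs (edgeR adjusted p of 1.09e-07, 0.00129 and 3.9e-05).

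Ferroportin RNA set monocytes apart from SPMs most sharply. Slc40a1 (chr1:45908068-45926523) had 1338, 1782, 952 and 1343 reads in the 4 WT monocyte libraries, or 66.9, 87.3, 41.3 and 59.5 CPM. In WT SPMs it had 0, 0, 1 and 0 reads, and in ACKR2-/- SPMs 0, 2, 2 and 4 reads. The exporter was thus near or below the floor in every SPM library. Summed over libraries and scaled to their totals, the WT monocyte level was 2820 times that of WT SPMs, with a 95% exact interval for the ratio from 506 to 111000 that covers counting error only. In WT lung macrophages Slc40a1 was at 2.998, 2.63, 4.28, 1.92 and 2.30 CPM, between the other cell types. That was 124 times the WT SPM level (95% exact interval 22.1 to 4900, counting error only) and lower than in WT monocytes, at -4.497 ± 0.55 on the log2 scale (edgeR adjusted p = 1.42e-07). Neutrophil markers, some of which monocytes also make, summed to 39797 to 89153 CPM in WT monocytes. They summed to 8.17 to 154 CPM in WT SPMs and 2.30 to 64.6 CPM in the WT lung. The part of neutrophil RNA in the monocyte levels of Slc40a1, Ncoa4 and Tfrc was not tested. In the WT lung the alveolar macrophage markers summed to 90.5 to 1555 CPM and the lung epithelium markers to 388 to 14182 CPM. Both sums were lowest in WT replicate 5 and ACKR2-/- replicate 4, with Slc40a1 at 2.30 and 0.100 CPM. The other lung libraries had 0.651 to 4.28 CPM. The part of alveolar macrophage or epithelial RNA in the lung level of Slc40a1 was not tested.

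Ceruloplasmin ran the other way. Cp (chr3:19957054-20009145) had 1, 2, 6 and 2 reads in the WT monocyte libraries and 35, 31, 22 and 48 reads in the WT SPM libraries. It reached 48.5, 34.8, 35.3, 34.8 and 25.6 CPM in WT lung macrophages, while WT SPMs stood at 2.70 to 3.42 CPM. Each cell type was separate from the next, in the order lung macrophages, SPMs, monocytes. The WT lung level was 280 times (95% exact interval 156 to 560) and the WT SPM level 23.8 times (12.9 to 48.7) that of WT monocytes, both intervals for counting error only. Lung macrophages exceeded SPMs by 3.55 ± 0.51 on the log2 scale (edgeR adjusted p = 1.77e-06). Epithelial marker RNA also varied in the lung. The library labelled WT replicate 5 and ACKR2-/- replicate 4, with epithelial marker sums of 388 and 239 CPM against 4472 to 15920 in the other 8, had 25.6 and 14.7 CPM of Cp, while the lowest Cp, 11.1 CPM, was in ACKR2-/- replicate 5 with a sum of 4472 CPM. The part of epithelial RNA in the Cp level was not tested.

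Among importers, Tfrc (chr16:32608920-32632794), which carries transferrin iron into the cell, was highest in monocytes. It was at 17.96, 16.0, 11.4 and 14.3 CPM in WT monocytes. In WT SPMs it was at 8.02, 3.15, 3.73 and 2.68 CPM, and in the WT lung at 8.49, 8.16, 7.63, 8.20 and 5.37 CPM. Tfrc was thus low in the cells whose ferritin RNA was high. The log2 difference from WT monocytes was -1.76 ± 0.39 in SPMs and -0.98 ± 0.35 in lung macrophages (edgeR adjusted p of 0.000652 and 0.0172). The lung call was lost without the lung WT libraries 3 and 5, at -0.85 with an edgeR adjusted p of 0.0721. WT lung macrophages and WT SPMs did not differ beyond their spread (0.78 ± 0.37, edgeR adjusted p = 0.0686), but were called without WT SPM replicate 1 (1.26, edgeR adjusted p = 0.00617) or without the lung library labelled WT replicate 5 (0.88, edgeR adjusted p = 0.0493).

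Slc11a1 (chr1:74375195-74386062), which pumps metal ions out of the phagosome, was lowest in monocytes and highest in lung macrophages. The WT ranges were 35.8 to 65.7 CPM in monocytes, 128 to 187 CPM in SPMs and 167 to 684 CPM in the lung. The lung replicate at 167 CPM was WT replicate 3, the library high in MHCII genes, and the other lung WT libraries began at 468 CPM. The differences in log2 were 1.60 ± 0.36 for SPMs and 3.17 ± 0.37 for lung macrophages, each against monocytes, and 1.57 ± 0.34 for lung macrophages against SPMs (edgeR adjusted p of 0.000631, 5.86e-08 and 0.000322).

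Of the heme genes, Hmox1 (chr8:75093621-75100589) followed the same order. It was at 57.7, 41.1, 61.5 and 52.8 CPM in WT monocytes. In WT SPMs it was at 80.7, 215, 125 and 202 CPM, and in the WT lung at 379, 241, 114, 349 and 460 CPM. All SPM and lung libraries lay above all monocyte libraries, while SPM and lung values overlapped. The log2 differences from WT monocytes were 1.55 ± 0.42 in SPMs and 2.53 ± 0.42 in lung macrophages (edgeR adjusted p of 0.00404 and 1.29e-05). The lung level exceeded the SPM level by 0.99 ± 0.40 (edgeR adjusted p = 0.0336). That call was lost with DESeq2's size factors and with the replicate number as a block (edgeR adjusted p of 0.0545 and 0.061). It was also lost without WT SPM replicates 1 or 3 or without lung WT replicates 1, 4 or 5, at 0.77 to 0.94 with edgeR adjusted p from 0.0569 to 0.111.

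Blvrb (chr7:27447978-27466144), which reduces biliverdin and flavins, peaked in SPMs instead. It was at 189 to 354 CPM in WT SPMs, 41.7 to 104 CPM in the WT lung and 27.5 to 34.7 CPM in WT monocytes, so the 3 ranges did not overlap. SPMs exceeded monocytes by 3.13 ± 0.29 in log2 and lung macrophages exceeded them by 1.01 ± 0.26 (edgeR adjusted p of 2.8e-09 and 0.00134). Lung macrophages were lower than SPMs, at -2.12 ± 0.25, with an edgeR adjusted p of 1.02e-07.

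Haptoglobin RNA was highest in the WT monocyte libraries, which also carried the neutrophil marker RNA given above. The part of that RNA in the Hp level was not tested. Hp (chr8:109575128-109579172) was at 1619, 1968, 1592 and 1783 CPM in WT monocytes and was the third most abundant of the 10 per kb there. WT SPMs had 21.97, 77.0, 116 and 102 CPM, and the WT lung had 331, 206, 71.3, 163 and 117 CPM. The log2 difference from WT monocytes was -4.46 ± 0.67 in SPMs and -3.29 ± 0.58 in lung macrophages (edgeR adjusted p of 6.4e-06 and 2.76e-05). SPMs and lung macrophages did not differ beyond their spread (1.17 ± 0.57, edgeR adjusted p = 0.0763), although without the lung WT libraries 3 and 5 the difference was called at 1.57 (edgeR adjusted p = 0.0275), as it was without replicate 3 alone at 1.37 (edgeR adjusted p = 0.041).

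**Figure D3:**
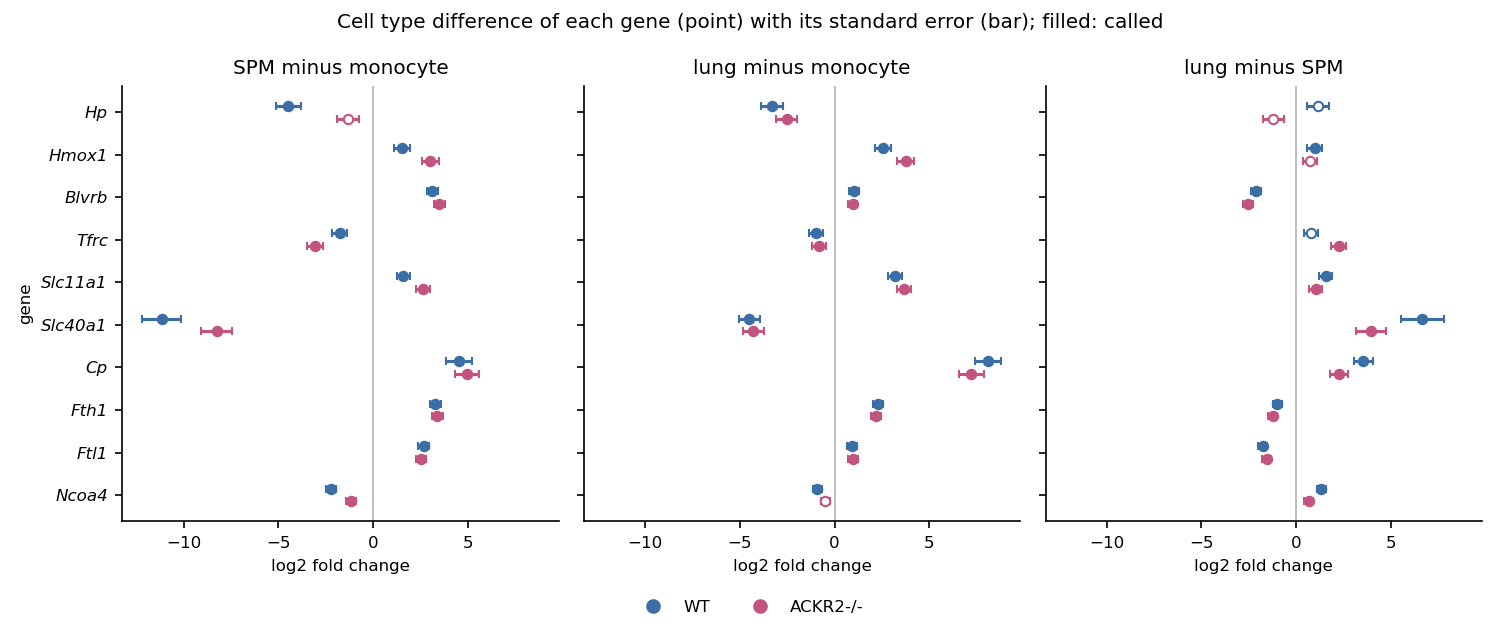
Log2 fold change between cell types for each gene, with its standard error, in WT (blue) and ACKR2-/- (pink) libraries, where filled points passed the test and the size threshold. The fitted values for Slc40a1 against SPMs rest on 1 WT and 8 ACKR2-/- SPM reads and depend on the prior count. Hp against monocytes in SPMs was called at -4.46 in WT and not called at -1.31 in ACKR2-/- libraries.

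Without lung WT replicates 3 and 5, 9 of the 10 genes were called between WT lung macrophages and WT monocytes, all but Tfrc, and 9 between WT lung macrophages and WT SPMs, all but Tfrc. Against monocytes the log2 differences were then 2.15 for Fth1, 0.75 for Ftl1, -0.94 for Ncoa4, -4.67 for Slc40a1, 8.21 for Cp, 3.25 for Slc11a1, 2.60 for Hmox1, 0.67 for Blvrb and -2.90 for Hp. Against SPMs they were -1.14 for Fth1, -1.92 for Ftl1, 1.29 for Ncoa4, 3.69 for Cp, 1.66 for Slc11a1, 1.06 for Hmox1 and -2.46 for Blvrb. The mean ratio of Fth1 to Ftl1 in the remaining 3 WT lung libraries was 1.81 ± 0.0457 (SD, n = 3).

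Other genes of the pathway were taken from 6 lists holding 60 genes, of which 53 were tested. In WT SPMs 16 of the 53 were higher and 15 lower than in WT monocytes, beside 21.8% and 20.1% of all genes. In WT lung macrophages 22 were higher and 12 lower than in monocytes, beside 39.5% and 24.4%, and 22 were higher and 14 lower than in SPMs, beside 39.1% and 23.2%. Of the 9 heme synthesis genes tested in SPMs against monocytes none was higher and 5 were lower. Of the 9 genes tested for heme uptake and breakdown 5 were higher and 1 was lower. The difference between these lists was not tested. Among the largest differences, the siderophore binder Lcn2 stood at a mean of 1114 CPM in WT monocytes, 2.16 CPM in SPMs and 9.40 CPM in the lung. The iron binding protein Ltf stood at 1110, 0.990 and 0.836 CPM in the same order, and both are neutrophil granule genes. The hemoglobin scavenger receptor Cd163 was at 57.6 CPM in WT SPMs and 1.81 CPM in monocytes (edgeR adjusted p = 3.72e-06).

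In the WT lung the hypoxia factor Epas1 was at a mean of 62.4 CPM, against 2.12 in SPMs and 0.0467 in monocytes. Zfp36l1, an RNA decay factor, was at 119 CPM in the lung, 23.7 CPM in SPMs and 0.611 CPM in monocytes. Spic, the factor of iron recycling macrophages, was at 57.3 CPM in the lung and 0.243 CPM in SPMs (edgeR adjusted p = 2.8e-10). Further genes with higher WT lung levels were the reductase Steap4 (5.65 CPM, against 0.0109 in monocytes) and 3 against SPMs. These 3 were Flvcr2 (2.62 and 0.0424 CPM), the metal importer Slc39a8 (6.26 and 0.215 CPM) and the erythroid heme synthesis gene Alas2 (10.7 and 0.359 CPM). Steap2 was at 0.631 CPM in the lung and had 0 reads in WT SPMs. Alas2 is an erythroid gene, and the summed erythroid markers were at 407 to 1444 CPM in the WT lung and 4.197 to 233 CPM in WT SPMs. The endothelium markers summed to 75.0 to 529 CPM in the WT lung, against 7.12 to 8.43 CPM in WT monocytes and 2.06 to 2.78 CPM in WT SPMs, and the lung epithelium markers to 388 to 14182 CPM, against at most 9.35 CPM in the WT libraries of the other cell types. The part of erythroid, endothelial or epithelial RNA in the lung levels of Alas2, Epas1 and the other genes named here was not tested.

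Between genotypes, few of the 10 genes were called. In monocytes 1 of the 9 genes tested, Ncoa4, was called, lower in ACKR2-/- mice, where 1.27% of 13246 genes were called in either direction and 0.355% were called lower. Cp, with 0 to 8 reads a library, was not tested. In SPMs none of the 9 tested was called, against 0.0462% of 12997 genes, and Slc40a1, with 0 to 4 reads, was not tested. In the lung none of the 10 was called, against 0% of 16824 genes. Ackr2 itself was not called there, at means of 9.66 CPM in WT and 0.745 CPM in ACKR2-/- libraries. The lack of a call in the lung therefore does not show a lack of change. Genes with an unadjusted p under 0.05 from edgeR numbered 4 of 9 in monocytes, 3 of 9 in SPMs and 0 of 10 in the lung, beside 17%, 5.46% and 2.97% of all genes tested. DESeq2 called 1 of the 9 in monocytes, none of the 9 in SPMs and none of the 10 in the lung, beside 3.73%, 0.256% and 0.138% of all genes. The median log2 difference of the genes tested was -0.42 in monocytes, 0.24 in SPMs and -0.04 in the lung, beside 0.00 (0.00409), -0.05 and -0.04 over all genes.

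**Figure D4:**
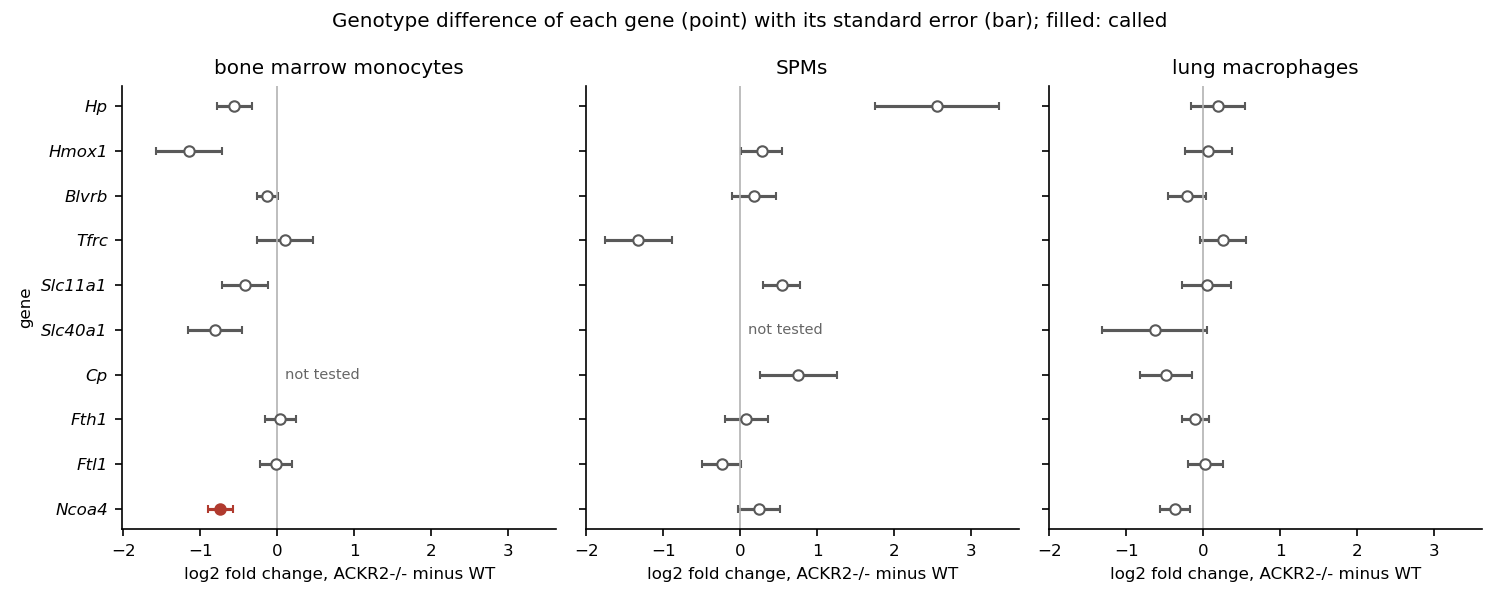
Log2 fold change between ACKR2-/- and WT libraries for each gene, with its standard error, in the 3 cell types. Only Ncoa4 in monocytes (filled, -0.74) passed the test and the size threshold, and the bars of Hmox1 in monocytes and of Hp and Tfrc in SPMs are wide.

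Ncoa4 in ACKR2-/- monocytes was at 54.5, 53.5, 40.4 and 42.7 CPM, against 80.6, 102, 64.5 and 76.8 CPM in WT. Every ACKR2-/- library lay below every WT library, as did those of 6.26% of the genes compared. The log2 fold change was -0.74 ± 0.16 (SE) with an edgeR adjusted p of 0.0489, just under the threshold. The exact two-sided permutation test of log2(CPM + 0.5) gave p = 0.0286, the smallest that 4 against 4 libraries allow, and 0.381 after adjustment over the 30 such tests. The call was kept with DESeq2 (DESeq2 adjusted p = 0.00275), and in edgeR with no filter on low counts, with the replicate number as a block and in a robust fit (edgeR adjusted p of 0.00896, 0.0163 and 0.0436). It was lost with DESeq2's size factors in edgeR, at an adjusted p of 0.0527, and in 6 of the 8 fits that left out 1 library (-0.77 to -0.60, edgeR adjusted p from 0.053 to 0.152), those without WT replicates 1, 2 or 4 or ACKR2-/- replicates 2, 3 or 4.

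The monocyte libraries also carried neutrophil marker RNA in unequal amounts. The 10 markers, all detected in every library, summed to 39797 to 89153 CPM in WT and to 54112, 59662, 15907 and 21525 CPM in ACKR2-/- replicates 1 to 4. Ly6g and Cxcr2, markers of mature neutrophils, were at 2.09 to 17.2 CPM, and S100a8, S100a9, Elane and Mpo are also made by monocytes or their progenitors. Within each genotype the libraries with more of this RNA had more Ncoa4, except that WT replicate 1 had more Ncoa4 than WT replicate 4 and ACKR2-/- replicate 1 slightly more than replicate 2. The marker sums of ACKR2-/- replicates 1 and 2 lay within the WT range and those of replicates 3 and 4 below it.

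Markers of other cells separated the genotypes in monocytes without overlap. The 7 T cell markers summed to 2.69 to 3.53 CPM in WT and to 50.2 to 87.0 CPM in ACKR2-/- monocyte libraries, with Cd3e at 0 in 1 WT library and every other marker detected in all 8. The 6 B cell markers summed to 508 to 567 CPM in WT and 574 to 795 CPM in ACKR2-/-. The 7 alveolar macrophage markers, nearly all of it Chil3, which monocytes also express, with Marco at or near 0 and Car4 at 0, summed to 5901 to 7272 CPM in WT and 3789 to 5244 CPM in ACKR2-/-. The part of neutrophil, T cell or B cell RNA in the Ncoa4 difference, or in any other genotype difference in monocytes, was not tested.

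In SPMs Ncoa4 was at 19.9, 16.6, 21.1 and 28.1 CPM in ACKR2-/- libraries, overlapping WT, with a log2 fold change of 0.24 ± 0.27 (edgeR adjusted p = 0.847). In the ACKR2-/- lung it was at 41.6, 35.0, 35.4, 40.8 and 17.4 CPM, and the log2 fold change was -0.37 ± 0.20 (edgeR adjusted p = 1). The lung genotypes overlapped when libraries were scaled over all 26, and did not overlap when they were scaled within the lung table, at 24.2 to 50.6 CPM in ACKR2-/- and 51.4 to 63.9 CPM in WT libraries. On that scale 0.224% of the 16091 genes compared were lower in all ACKR2-/- than in all WT lung libraries. The log2 fold change between genotypes for Ncoa4 was 1.07 ± 0.35 higher in SPMs than in monocytes, a difference that did not pass (edgeR adjusted p = 0.341).

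Hmox1 in ACKR2-/- monocytes was at 5.33, 21.9, 45.2 and 23.0 CPM. Replicates 1, 2 and 4 lay below all WT monocyte libraries, and replicate 3 lay among them. The log2 fold change was -1.15 ± 0.43, which did not pass (edgeR adjusted p = 0.209). Leaving out 1 library at a time moved it between -1.64 and -0.82, and it was called only without ACKR2-/- replicate 3 (edgeR adjusted p = 0.0438). ACKR2-/- replicate 1, with the least Hmox1, had a summed monocyte marker level of 3245 CPM against 4958 to 6454 CPM in the other 7 libraries, and an erythroid marker sum of 930 CPM against 50.7 to 393 CPM. Without it the log2 fold change was -0.82 with an edgeR adjusted p of 0.151, and the part of these markers was not tested.

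ACKR2-/- SPMs had Hmox1 at 183, 191, 177 and 229 CPM and the ACKR2-/- lung at 303, 373, 228, 395 and 321 CPM, within or near the WT ranges. Their log2 fold changes were 0.28 ± 0.27 in SPMs and 0.07 ± 0.30 in the lung (edgeR adjusted p of 0.813 and 1). The genotype effect differed from that in monocytes by 1.48 ± 0.59 in SPMs and by 1.23 ± 0.55 in the lung, neither of which passed (edgeR adjusted p of 0.547 and 0.783).

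Hp was the gene with the largest genotype difference in any cell type, in SPMs, and it came from 2 libraries. ACKR2-/- SPM replicates 1 and 4 had 1068 and 653 CPM, while replicates 2 and 3 had 99.3 and 74.0 CPM, within the WT range of 21.97 to 116 CPM. The log2 fold change of 2.56 ± 0.81 did not pass (edgeR adjusted p = 0.788), and it ranged from 1.75 without ACKR2-/- replicate 1 to 2.92 without replicate 3. Fitted without the filter on low counts, with more genes tested, Hp was called at 2.59 (edgeR adjusted p = 0.0493). The same 2 libraries stood apart in other genes. Their summed alveolar macrophage markers were 818 and 769 CPM against 29.2 to 119 CPM in the other 6 SPM libraries, led by Chil3 and Marco, with Siglecf under 2 CPM in every SPM library and Car4 at or near 0. Chil3 was also at 3782 to 7258 CPM in the monocyte libraries, where Hp was high. Ly6c2, a monocyte marker, was at 684 and 1307 CPM in the same 2 SPM libraries, against 27.0 to 101.5 CPM in the other 6. The 6 monocyte markers together summed to 2787 and 3409 CPM in them and to 1882 to 4018 CPM in the others. Their large peritoneal macrophage markers summed to 2251 and 3120 CPM, against 475 to 1693 CPM in the others. Erythroid markers summed to 1413 CPM in ACKR2-/- SPM replicate 1 and 210 CPM in replicate 4, against 4.197 to 233 CPM in WT SPMs. Neutrophil markers summed to 122 CPM in replicate 1 and 294 CPM in replicate 4, against 8.17 to 154 CPM in WT SPMs. Both sums lay within the WT ranges in ACKR2-/- SPM replicates 2 and 3. The part of any of these markers in the Hp difference was not tested.

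In ACKR2-/- monocytes Hp was at 700, 1631, 1319 and 1037 CPM, against 1592 to 1968 CPM in WT, with a log2 fold change of -0.56 ± 0.22 (edgeR adjusted p = 0.236). The lowest value was again that of replicate 1. In the lung the ACKR2-/- libraries ranged from 134 to 307 CPM, and the log2 fold change was 0.19 ± 0.35 (edgeR adjusted p = 1). The genotype effect on Hp was 3.15 ± 0.85 higher in SPMs than in monocytes, the nearest of the 10 genes to a call, at an edgeR adjusted p of 0.166, where 0.253% of 17792 genes were called. None of the 10 was called in the other interactions either, where 0.152% of all genes were called for the lung against monocytes and 0.0393% for the lung against SPMs. DESeq2 called the Hp interaction between SPMs and monocytes, at 3.08 with a DESeq2 adjusted p of 0.0249, where it called 0.879% of all genes. It called none of the 10 in the interactions of the lung with monocytes and with SPMs, beside 0.613% and 0.15% of all genes. Unadjusted p-values under 0.05 were reached by 5 of the 10 genes for SPMs against monocytes, 1 for the lung against monocytes and 2 for the lung against SPMs, beside 7.46%, 6.07% and 6.15% of all genes.

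Tfrc in ACKR2-/- SPMs was at 1.65, 1.29, 2.56 and 1.99 CPM, from 19 to 54 reads a library. All 4 values lay below the WT values of 2.68 to 8.02 CPM, as did those of 1.01% of the genes compared. The log2 fold change of -1.32 ± 0.43 did not pass (edgeR adjusted p = 0.788), and the exact two-sided permutation test gave p = 0.0286, with 0.381 after adjustment over the 30 tests. WT replicate 1 carried much of the size, since without it the log2 fold change was -0.76. That WT library had the lowest summed large peritoneal macrophage markers, 475 CPM, and the highest summed monocyte markers, 4018 CPM against 1882 to 3409 CPM in the other SPM libraries, and the part of these markers was not tested.

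In monocytes Tfrc was at 25.8, 20.8, 5.78 and 10.7 CPM in ACKR2-/- replicates 1 to 4, against 11.4 to 17.96 CPM in WT. The ACKR2-/- libraries thus lay on both sides of WT, and the log2 fold change was 0.11 ± 0.37 (edgeR adjusted p = 0.909). Replicates 1 and 2, the high ones, had erythroid marker sums of 930 and 393 CPM, against 84.9 and 50.7 CPM in replicates 3 and 4, and the part of erythroid RNA was not tested. In the ACKR2-/- lung Tfrc ranged from 6.23 to 13.6 CPM, with a log2 fold change of 0.26 ± 0.29 (edgeR adjusted p = 1).

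Slc40a1 in ACKR2-/- monocytes was at 46.7, 58.4, 17.5 and 20.7 CPM, against 66.9, 87.3, 41.3 and 59.5 CPM in WT. Replicates 3 and 4 lay below all WT libraries and replicates 1 and 2 among them. The log2 fold change was -0.81 ± 0.35, which did not pass (edgeR adjusted p = 0.272). Replicates 3 and 4 were also the libraries with the least neutrophil marker RNA, 15907 and 21525 CPM, whose part was not tested. In the ACKR2-/- lung Slc40a1 was at 1.75, 3.21, 3.34, 0.100 and 0.651 CPM, from 3 reads in replicate 4 to 112 in replicate 2, and the log2 fold change was -0.63 ± 0.69 (edgeR adjusted p = 1).

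The remaining genes showed no call between genotypes in any cell type. Fth1 differed by 0.04 ± 0.20, 0.08 ± 0.28 and -0.10 ± 0.18 in log2 in monocytes, SPMs and the lung, and Ftl1 by -0.01 ± 0.20, -0.24 ± 0.25 and 0.03 ± 0.22. Blvrb differed by -0.13 ± 0.14, 0.18 ± 0.29 and -0.21 ± 0.24. Slc11a1 differed by -0.42 ± 0.29 in monocytes and 0.05 ± 0.32 in the lung. In SPMs Slc11a1 was at 239, 171, 201 and 350 CPM in ACKR2-/- and 149, 168, 128 and 187 CPM in WT libraries, a log2 fold change of 0.54 ± 0.24 that did not pass (edgeR adjusted p = 0.788). Cp differed by 0.75 ± 0.50 in SPMs, where ACKR2-/- replicates 1 and 4, also high in Hp, had 5.86 and 11.1 CPM against 1.63 to 3.42 CPM in the other 6 libraries. In the lung Cp was at 46.4, 30.3, 26.9, 14.7 and 11.1 CPM in ACKR2-/- libraries, a log2 fold change of -0.49 ± 0.33 (edgeR adjusted p = 1). Without lung WT replicates 3 and 5 no gene of the 10 was called between genotypes in the lung or in an interaction with it. The log2 fold changes were then 0.04 for Hmox1, 0.19 for Blvrb, -0.42 for Slc40a1, 0.00 (0.00265) for Slc11a1, 0.09 for Fth1, 0.23 for Ftl1, 0.17 for Tfrc, -0.29 for Ncoa4, -0.16 for Hp and -0.58 for Cp.

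**Figure D5:**
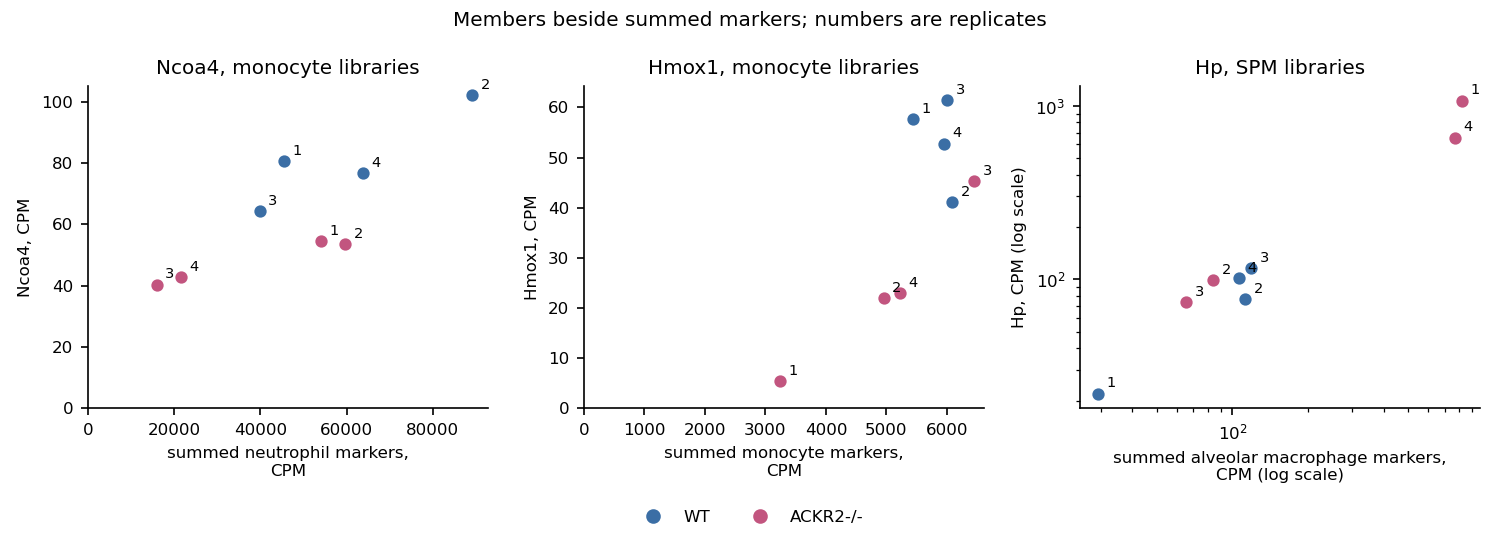
Level of Ncoa4 and Hmox1 in the 8 monocyte libraries and of Hp in the 8 SPM libraries, in CPM, against the summed markers named on each axis, with replicate numbers beside the points for WT (blue) and ACKR2-/- (pink). ACKR2-/- monocyte replicates 3 and 4 have the lowest Ncoa4 levels and the lowest neutrophil marker sums, ACKR2-/- replicate 1 is low in both Hmox1 and monocyte markers, and ACKR2-/- SPM replicates 1 and 4 stand apart in both measures.

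None of the pathway genes outside the 10 was called between genotypes, of 47 tested in monocytes, 46 in SPMs and 52 in the lung. Those with an unadjusted p under 0.05 from edgeR numbered 10, 2 and 0, beside 17%, 5.46% and 2.97% of all genes tested, and none was called in an interaction. DESeq2 called 3 of 47 in monocytes, beside 3.73% of all genes, and none elsewhere. The 3 were the metal importer Slc39a14 (1.98, DESeq2 adjusted p = 0.0212), Lcn2 (-1.63, DESeq2 adjusted p = 0.017) and the hypoxia factor Hif1a (-0.54, DESeq2 adjusted p = 0.0148). These 3 genes were named after their values were seen. Their log2 fold changes in edgeR were 1.96 ± 0.50, -1.64 ± 0.36 and -0.55 ± 0.13, with edgeR adjusted p of 0.0883, 0.0527 and 0.072. The summed neutrophil markers, which include genes stored with Lcn2 in granules, were lower in ACKR2-/- replicates 3 and 4 than in all other monocyte libraries, and their part in the Lcn2 value was not tested.

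Over the 26 libraries, after group means were subtracted, the genes whose log2(CPM + 0.5) ran most like Hmox1 were Rras, Metrnl and Sirpb1b (Pearson's r of 0.868, 0.860 and 0.857 over 7489 genes compared). For Slc40a1 they were Myc, Sept1 and Acap1 (0.821, 0.805 and 0.802), and for Tfrc they were Xpot, Ocrl and Chd7 (0.721, 0.721 and 0.685). These values describe the libraries, share their depth and cell makeup, and carry no p because the genes were picked as the highest.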

How the data were processed

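Monocytes, SPMs and MHCII negative lung macrophages were FACS sorted and sequenced by the authors as poly-A enriched, SMARTer amplified libraries. The authors deposited raw read counts per gene, 1 table a cell type. The submitters' processing notes name HISAT2 2.0.5, featureCounts 1.5.0-p3, DESeq2 and mm10. The lung table ends with 5 summary lines in the form that htseq-count writes, holding 56.3% of its counts, and these stayed out of totals and tests. Whether counting used strand was not given in the sources used here.

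Counts were fitted with edgeR 4.0.16 in R 4.3.3 (filterByExpr with a minimum count of 10 and total of 15, TMM factors, quasi-likelihood test, Benjamini-Hochberg adjustment over all genes tested). Genotypes were compared within each table. Cell types and interactions came from 1 fit of 26 libraries over 17792 genes. CPM values are from that fit, while genotype fold changes come from each table. A gene was called below an adjusted p of 0.05 with a log2 difference beyond 0.5 in size. DESeq2 1.42.0, DESeq2's size factors, no filter, a robust fit, a replicate block, summed ferritin copies and leaving out libraries were the alternatives, and leaving out lung WT replicates 3 and 5 together was added after the data were seen. No 2 of the 44 pairs of libraries within a group were duplicates. The scripts were tested on simulated data.

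The 10 genes, the pathway lists and the marker lists were chosen with earlier results of these data known. All 10 genes were named in every comparison. Of the pathway genes, those called between genotypes and the 5 called with the largest fold in each WT cell type contrast were named, and for Hmox1, Slc40a1 and Tfrc the 3 genes of highest correlation. Intervals of read ratios are exact binomial intervals at 95%. Gene positions are those of the tables, which match GENCODE M21 for all 10 genes except Fth1.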

Additional observations from a re-analysis of the deposited data

Results flagged for a closer look

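Of 72 groups of values examined for 1 library far from the rest, 4 held such a library, and chance gives about 1 in 20. Slc40a1 in WT SPM replicate 3 was at 0.1554 CPM, from 1 read, against 0 in the other WT SPM libraries. Tfrc in the lung library labelled WT replicate 5 was at 5.373 CPM against 7.627 to 8.487 CPM in the other WT lung libraries, and that library was also the one with 0 Ackr2 reads. Ncoa4 in ACKR2-/- lung replicate 5 was at 17.43 CPM against 35.02 to 41.57 CPM in its group. Ftl1-ps1, a near-identical copy of Ftl1, was at 3802 CPM in WT SPM replicate 3 against 538.7 to 863.4 CPM in the other WT SPM libraries.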

How the results depend on the processing

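Between genotypes, the count of called members in monocytes was 0 with DESeq2's size factors in edgeR and 2 with the replicate block, where Slc40a1 joined Ncoa4 at -0.94 (edgeR adjusted p = 0.0273), and it ran from 0 to 1 when 1 library was left out. It was 0 without WT replicates 1, 2 or 4 or ACKR2-/- replicates 2 or 4. In SPMs it was 1 with no filter on low counts. The interaction of SPMs against monocytes gave 1 with DESeq2, and 0 to 1 with 1 library left out, the 1 being Hp without ACKR2-/- SPM replicate 3. Same-numbered libraries correlated at -0.13 to 0.35 in monocytes, -0.11 to 0.00321 in SPMs and -0.10 to 0.68 in the lung, highest for lung replicate 1. No label says that the replicate numbers pair the samples. The block was used for no main value, and its results are given only as an alternative. Of the results for single genes, 19 that were not called changed sign under an alternative, in 46 fits in all, and the cause was not tested. With the replicate block Tfrc in monocytes was -0.077. Without lung WT replicates 3 and 5 together the lung effects were 0.19 for Blvrb, 0.086 for Fth1 and -0.16 for Hp, and the differences from monocytes were 0.29 for Blvrb and 0.025 for Fth1. With 1 library left out the monocyte effects ran from -0.13 to 0.17 for Fth1, -0.16 to 0.12 for Ftl1 and -0.26 to 0.40 for Tfrc, and the SPM effects from -0.043 to 0.35 for Blvrb and -0.063 to 0.24 for Fth1. Lung effects ran from -0.12 to 0.28 for Hmox1, -0.32 to 0.068 for Blvrb, -0.15 to 0.25 for Slc11a1, -0.16 to 0.013 for Fth1 and -0.084 to 0.21 for Ftl1. Differences of SPMs from monocytes ran from -0.059 to 0.31 for Fth1, -0.29 to 0.023 for Ftl1 and -0.20 to 0.98 for Cp. Differences of the lung from monocytes ran from -0.18 to 0.18 for Blvrb, -0.13 to 0.55 for Slc40a1, -0.26 to 0.075 for Fth1, -0.088 to 0.23 for Ftl1 and -0.11 to 0.51 for Tfrc. Within ACKR2-/- libraries Tfrc in the lung against monocytes lost its call with DESeq2 (DESeq2 adjusted p = 0.0726), with DESeq2's size factors in edgeR, no filter and the replicate block (edgeR adjusted p of 0.0755, 0.0586 and 0.072) and without any 1 of 5 libraries (-0.75 to -0.48, edgeR adjusted p from 0.0869 to 0.261), and Hp in SPMs against monocytes was called without ACKR2-/- SPM replicate 1 (-2.09, edgeR adjusted p = 0.0104). DESeq2's size factors moved the median of all genes by 0.17 for WT SPMs against WT monocytes, and no cell type call of a ferritin gene changed. At these depths Slc40a1 in SPMs and Cp in monocytes lay near the floor, and their genotype differences were not detectable.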

Other observations

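In the contrast of WT lung macrophages with WT SPMs, 39.1% of all genes were called higher in the lung and 23.2% lower. Of the storage, chaperone and oxidase genes of iron all 4 tested were higher. Of the iron uptake and reduction genes 6 of 10 were higher and 1 was lower. Of the iron and heme regulators 5 of 11 were higher and 2 lower. Of the mitochondrial iron and iron-sulfur cluster genes 2 of 10 were higher and 5 lower. These lists were chosen with earlier results known, and neither a list nor a difference between lists was tested.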
